A study of Mus musculus with 4 samples.

Results

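The genes of the lung capillary wall followed here by single-nucleus RNA-Seq are Apln, Aplnr, Kit, Kitl, Car4, Gpihbp1, Lpl and Cd36. They were chosen by symbol, as the genes of apelin signalling, Kit signalling, carbonic anhydrase and lipid uptake that are known to divide the capillary endothelial cells (ECs) of the alveolus, and they are 8 of the 32285 genes in the count matrices. The samples were the lungs of 2 wild-type mice (WT1 and WT2) and 2 VEcad-TRF2DN-Tg mice (Tg1 and Tg2), all labelled C57/BL6J and aged 8 to 9 weeks. The transgene is a dominant-negative form of TRF2, a protein that protects telomeres, driven in ECs by the VE-cadherin promoter, and no other allele was named. By the study's account the mice were male and all 4 had been kept in chronic hypoxia, and lungs from normoxia were not analysed here. Each library was 1 mouse.

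A pair of capillary EC types lines the alveolus. Aerocytes are large, thin cells specialised for gas exchange, and general capillary ECs are smaller cells that regulate vessel tone and can divide to renew both types. Apelin (Apln) is a secreted peptide that signals through the G protein-coupled receptor encoded by Aplnr, and the stem cell factor encoded by Kitl activates the receptor tyrosine kinase Kit, so that in both pairs a ligand known from one cell type faces a receptor known from the other. Car4 is a carbonic anhydrase anchored to the capillary surface, where it speeds the exchange of carbon dioxide and bicarbonate. Lipoprotein lipase (Lpl) frees fatty acids from circulating lipoproteins, Gpihbp1 carries the enzyme to the luminal face of capillaries, and Cd36 takes up fatty acids.

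The promoters of the 3 members that were highest in aerocytes are shown. Each is the 250 bases before the gene's start in RefSeq (GRCm38.p6), 5′ to 3′ on the strand of the gene, with matches to ACGTG or GCGTG, the core letters of the hypoxia response element, in capitals on either strand.
Apln, chrX:48034854-48035103, minus strand: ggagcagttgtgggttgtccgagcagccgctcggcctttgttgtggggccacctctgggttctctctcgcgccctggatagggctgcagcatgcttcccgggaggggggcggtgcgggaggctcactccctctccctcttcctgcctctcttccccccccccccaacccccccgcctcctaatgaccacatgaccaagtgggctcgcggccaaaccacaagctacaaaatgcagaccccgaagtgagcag
Kitl, chr10:100015571-100015820, plus strand: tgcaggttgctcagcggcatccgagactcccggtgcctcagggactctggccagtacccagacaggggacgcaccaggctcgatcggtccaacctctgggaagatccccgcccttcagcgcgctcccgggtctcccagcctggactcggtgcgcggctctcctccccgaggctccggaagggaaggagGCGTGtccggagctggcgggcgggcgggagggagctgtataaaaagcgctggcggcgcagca
Car4, chr11:84957504-84957753, plus strand: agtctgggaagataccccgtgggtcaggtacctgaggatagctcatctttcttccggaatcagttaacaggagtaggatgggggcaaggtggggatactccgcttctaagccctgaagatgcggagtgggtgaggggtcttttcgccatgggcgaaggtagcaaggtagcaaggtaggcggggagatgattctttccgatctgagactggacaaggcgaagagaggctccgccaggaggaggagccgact
The Kitl window held 1 match, 62 bases before the RefSeq start, and the Apln and Car4 windows held 0. GENCODE vM21 starts Kitl at 100015630, so by that annotation most of the Kitl window, with the match, lies inside the gene. Of 32851 mouse promoter windows of that length, 38.6% held at least 1 match, so that these letters are common in promoters at large. The table gave a promoter for 5 of the 8 members.

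The genes lie on 7 chromosomes (GRCm38, GENCODE vM21) and differ in how much of them is intron, which matters in nuclei, where RNA that still holds its introns was counted. Cd36 (chromosome 5, 17781690 to 17888801, minus strand) is 96.7% intron, Kitl (chromosome 10, 100015630 to 100100416, plus strand) 93.0% and Kit (chromosome 5, 75574916 to 75656722, plus strand) 89.1%. Car4 (chromosome 11, 84957786 to 84966044, plus strand) is 76.2% intron, Apln (chromosome X, 48025146 to 48034853, minus strand) 67.6% and Lpl (chromosome 8, 68880491 to 68907448, plus strand) 61.1%. Gpihbp1 (chromosome 15, 75596628 to 75599481, plus strand) is a short gene with 10.5% intron, and Aplnr (chromosome 2, 85136225 to 85139923, plus strand) has none. Levels are therefore compared between cell classes and mice and not between genes.

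Barcodes with at least 1500 UMIs numbered 134744 over the 4 mice, 25269 to 44000 per mouse, with a median of 1860 to 2530 UMIs. They were clustered without the 8 genes, which are also no markers of any class, and 17 classes with at least 10 nuclei in every mouse were named from their markers, while 38.7% to 71.1% of the barcodes of a mouse stayed in clusters with no name. The capillary classes held 1626 general capillary EC nuclei (306 in WT1, 271 in WT2, 495 in Tg1 and 554 in Tg2) and 608 aerocyte nuclei (115, 99, 168 and 226), and 1775 EC nuclei could not be given a subtype. All 10 general capillary markers and all 8 aerocyte markers were more than 2-fold above the median of the other classes, and none was at 0. Of the AT2 markers 6 of 8 were, and of the alveolar macrophage markers 4 of 7. The same lists had named the clusters, so these counts are no independent check. They also do not set the 2 capillary types against each other. Within a class the mice could sit in different clusters. Those of alveolar type 2 (AT2) epithelial cells differed in part between the genotypes, 1 alveolar type 1 (AT1) cluster held 426 of the 699 AT1 nuclei of WT1 and 0 to 2 of each other mouse, and 1 alveolar macrophage cluster held 548 of 668 nuclei of WT1 but 126 of 3272 of Tg1. Between any 2 libraries 176 to 475 barcodes were shared. The endogenous Terf2 level in general capillary ECs was 55.9 and 57.4 CPM (UMIs per 1000000 UMIs of the class) in WT1 and WT2 and 30.6 and 44.2 in Tg1 and Tg2, so that the gene of the transgene's protein was not higher in the Tg libraries. Whether these 3′ libraries can read the transgene is not given in the sources used here.

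Free RNA was present in every droplet and differed between the genotypes. It was read from barcodes with 300 to 800 UMIs, taken as empty droplets, in which 7 secretory epithelial genes made up 2.03% and 2.21% of UMIs in WT1 and WT2 but 15.5% and 6.44% in Tg1 and Tg2. The same genes made up 1.04%, 1.13%, 6.31% and 2.91% of the general capillary UMIs in that order. If all of these UMIs were free RNA, 40.8% to 51.2% of the UMIs of general capillary ECs and 37.6% to 45.5% of those of aerocytes were free RNA. The level in empty droplets of the same mouse is therefore given beside each member.

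Apln led in aerocytes and was read from few molecules. Aerocytes held 6, 12, 8 and 11 Apln UMIs in WT1, WT2, Tg1 and Tg2, or 15.4, 34.2, 21.4 and 17.4 CPM, and general capillary ECs held 0, 2, 8 and 4, or 0, 2.09, 7.64 and 2.90 CPM. The 0 of WT1 allows a level of up to 3.64 CPM, by counting error only. The empty droplets held 3.60, 4.06, 4.76 and 9.75 CPM, from 20, 29, 60 and 19 UMIs. The aerocytes stood above them in all 4 mice, by 1.78-fold at the least. That least value is of Tg2 and rests on 11 UMIs against 19. No other class stood above free RNA in every mouse. The aerocyte level of 22.1 ± 8.45 CPM (SD, n = 4) did not overlap with that of the next class, arterial ECs at 5.02 ± 5.39 CPM. With the nuclei thinned to 1500 UMIs each, 2.21% to 6.06% of aerocyte nuclei in a mouse had an Apln UMI (4.42% to 11.1% before thinning), against 0.0579% to 0.798% of AT2 nuclei (0.231% to 1.44%), which stand for background here. The median depth of a nucleus was 2000 to 2819 UMIs in aerocytes, 1933 to 3127 in general capillary ECs and 2231 to 2984 in AT2 cells.

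Its receptor gene Aplnr led in general capillary ECs. The counts there were 10, 4, 16 and 23 UMIs, or 12.1, 4.18, 15.3 and 16.7 CPM, against 2.70, 3.64, 6.59 and 5.64 CPM in empty droplets. The class was above its free RNA in all 4 mice, but in WT2 only by 1.15-fold. Venous ECs came next at 7.47 ± 4.41 CPM and overlapped with it, and aerocytes, with 1, 1, 2 and 5 UMIs, lay at 4.67 ± 2.49 CPM (SD, n = 4), about the level of the empty droplets. After thinning, 0.369% to 2.22% of general capillary nuclei had an Aplnr UMI (1.48% to 4.15% before), against 0.145% to 0.438% of AT2 nuclei (0.318% to 0.736%). At this depth the share in WT2 cannot be told from the background.

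Kitl, the ligand of Kit, was high in aerocytes of every mouse. The level was 1721 and 1397 CPM in WT1 and WT2 and 1434 and 1240 CPM in Tg1 and Tg2, against 148, 148, 113 and 147 CPM in empty droplets. Mesothelial cells followed at 363 ± 53.8 CPM, pericytes at 348 ± 32.6 and general capillary ECs at 303 ± 45.9 (SD, n = 4). These 3 overlapped with each other, while no mouse's aerocytes overlapped with them. The mesothelial level was 409, 306, 329 and 409 CPM in WT1, WT2, Tg1 and Tg2 and the pericyte level 351, 362, 301 and 376 CPM, with the genotypes overlapping in both. Aerocytes, mesothelial cells and pericytes were at least 2-fold above free RNA in every mouse, and alveolar fibroblasts and arterial, venous and general capillary ECs were above it in every mouse, by less than 2-fold in at least 1. A Kitl UMI was found in 75.8% to 83.5% of aerocyte nuclei thinned to 1500 UMIs (86.3% to 92.2% before thinning), in 28.7% to 38.1% of general capillary nuclei (35.4% to 52.4%) and in 8.75% to 12.8% of AT2 nuclei (13.6% to 24.9%).

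Kit, the receptor, showed the opposite order within the capillaries. General capillary ECs held 328, 275, 244 and 278 CPM in WT1, WT2, Tg1 and Tg2, from 255 to 384 UMIs per mouse, and aerocytes held 43.7, 39.9, 48.2 and 39.5 CPM. The free RNA held 29.3, 22.4, 13.6 and 13.9 CPM, so that general capillary ECs were 11.2-fold above it at the least and aerocytes 1.49-fold. Dendritic cells were the only other class at least 2-fold above free RNA in all 4 mice, with 130, 138, 115 and 122 CPM, and overlapped neither with general capillary ECs nor with pericytes, which came next at 51.0 ± 20.5 CPM. Pericytes held 45.5, 43.0, 80.8 and 34.6 CPM and venous ECs 49.4, 53.6, 34.2 and 37.6 CPM, both above free RNA in all 4 mice. Kit also marks mast cells, and of 6 mast cell and basophil markers 3 were at 0 in general capillary ECs, with 4 UMIs of Cpa3 and 1 of Mcpt4 beside 1172 UMIs of Kit. The sixth, Gata2, which ECs also express, had 274 UMIs. A Kit UMI was found in 27.1% to 32.7% of general capillary nuclei after thinning (33.9% to 48.7% before), in 2.02% to 7.14% of aerocyte nuclei (7.74% to 11.3%) and in 0.985% to 2.11% of AT2 nuclei (1.65% to 3.91%).

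**Figure D1:**
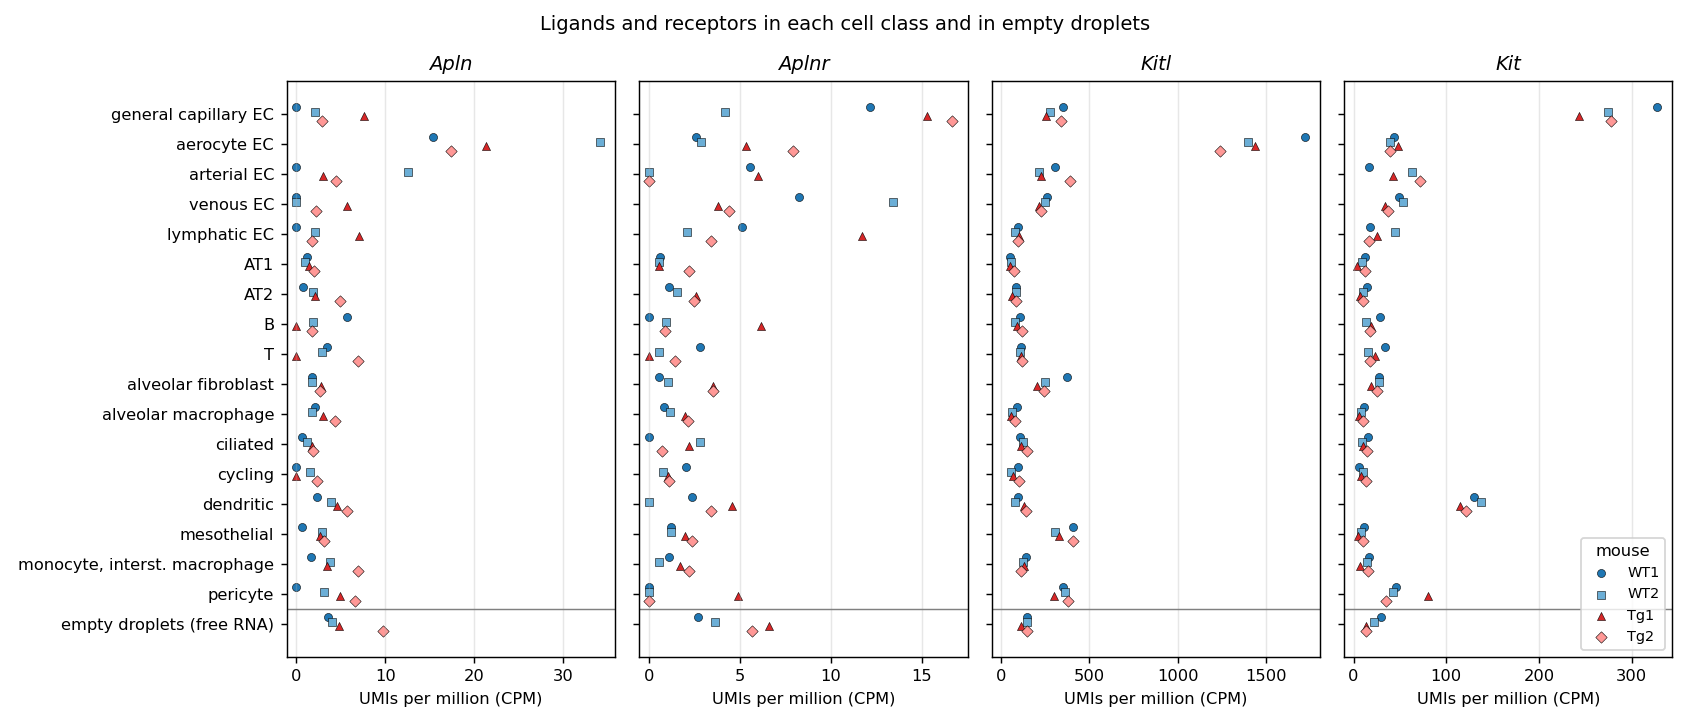
Level of Apln, Aplnr, Kitl and Kit in CPM (x axes, which differ between panels) in 17 cell classes and in empty droplets (rows), with 1 point per mouse. Apln and Kitl are highest in aerocytes, at 15.4 to 34.2 and 1240 to 1721 CPM, and Kit in general capillary ECs, at 244 to 328 CPM, while the Aplnr points of several EC classes overlap.

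Car4 was raised above free RNA in every mouse only in aerocytes, of the 17 classes as named from clusters. The aerocyte level was 270, 314, 343 and 315 CPM and that of general capillary ECs 52.2, 109, 73.5 and 106 CPM, in the order WT1, WT2, Tg1 and Tg2. Empty droplets held 56.3, 188, 88.8 and 175 CPM, so that general capillary ECs lay below the free RNA of their own mouse in all 4, and the order of the mice was that of the empty droplets. With the free RNA subtracted, a mean of 45.5 CPM of Car4 was left in general capillary ECs. Alveolar macrophages were second at 150 ± 41.4 CPM and above free RNA in 3 of 4 mice, and they did not overlap with aerocytes at 310 ± 30.1 CPM (SD, n = 4). After thinning, 36.7% to 43.4% of aerocyte nuclei had a Car4 UMI (49.4% to 65.7% before), against 8.5% to 18.1% of general capillary (11.8% to 31.7%) and 4.4% to 12.8% of AT2 nuclei (7.58% to 25.2%).

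Of the lipid uptake genes, Gpihbp1 had a weak general capillary signal. The nuclei of that class held 11, 20, 69 and 48 UMIs, or 13.4, 20.9, 65.9 and 34.8 CPM, and the empty droplets held 7.56, 5.04, 28.2 and 21.0 CPM. General capillary ECs were the only class above free RNA in every mouse, by 1.65-fold at the least. Venous ECs at 20.6 ± 14.5 CPM and aerocytes at 17.1 ± 11.6 CPM overlapped with their 33.7 ± 23.2 CPM (SD, n = 4). A Gpihbp1 UMI was found in 1.96% to 8.28% of general capillary nuclei after thinning (3.59% to 11.3% before) and in 0.463% to 2.08% of AT2 nuclei (0.897% to 3.12%).

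Lpl was not above free RNA in any EC class of any mouse. General capillary ECs held 82.6, 232, 271 and 425 CPM and the empty droplets 130, 389, 409 and 668 CPM, with the same order of the mice, WT1 lowest and Tg2 highest. WT1 was the lowest mouse in 17 of 17 classes and Tg2 the highest in 16. Only alveolar macrophages, with 319, 380, 481 and 667 CPM, came above the free RNA of a mouse, in 2 of 4 mice, and their mean level of 462 CPM led the order of classes without standing clear of the next, monocytes and interstitial macrophages at 346 CPM. The share of nuclei with an Lpl UMI after thinning was 11.1% to 47.5% in general capillary ECs (18.3% to 62.8% before) and 9.17% to 41.7% in AT2 cells (15.9% to 63%). With the free RNA subtracted, 31.6, 64.2, 175 and 222 CPM of Lpl were left in general capillary ECs of WT1, WT2, Tg1 and Tg2.

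Cd36 was spread over several classes. General capillary ECs led with 985, 726, 856 and 752 CPM against 564, 487, 304 and 361 CPM in empty droplets, by 1.49-fold at the least. Venous ECs at 604 ± 120 CPM, AT2 cells at 601 ± 59.7 CPM and aerocytes at 550 ± 90.1 CPM (SD, n = 4) were also above free RNA in all 4 mice, and each of the 4 classes overlapped with its neighbour in the order. The venous level was 758, 634, 481 and 542 CPM and the AT2 level 621, 674, 535 and 575 CPM in WT1, WT2, Tg1 and Tg2. In both the Tg mice were the lower pair, as they were in the empty droplets. Its share of nuclei after thinning, 54.2% to 67.7% in general capillary ECs (73.5% to 80.4% before), reached into that of AT2 cells at 49.9% to 58.5% (63.5% to 79.5%).

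**Figure D2:**
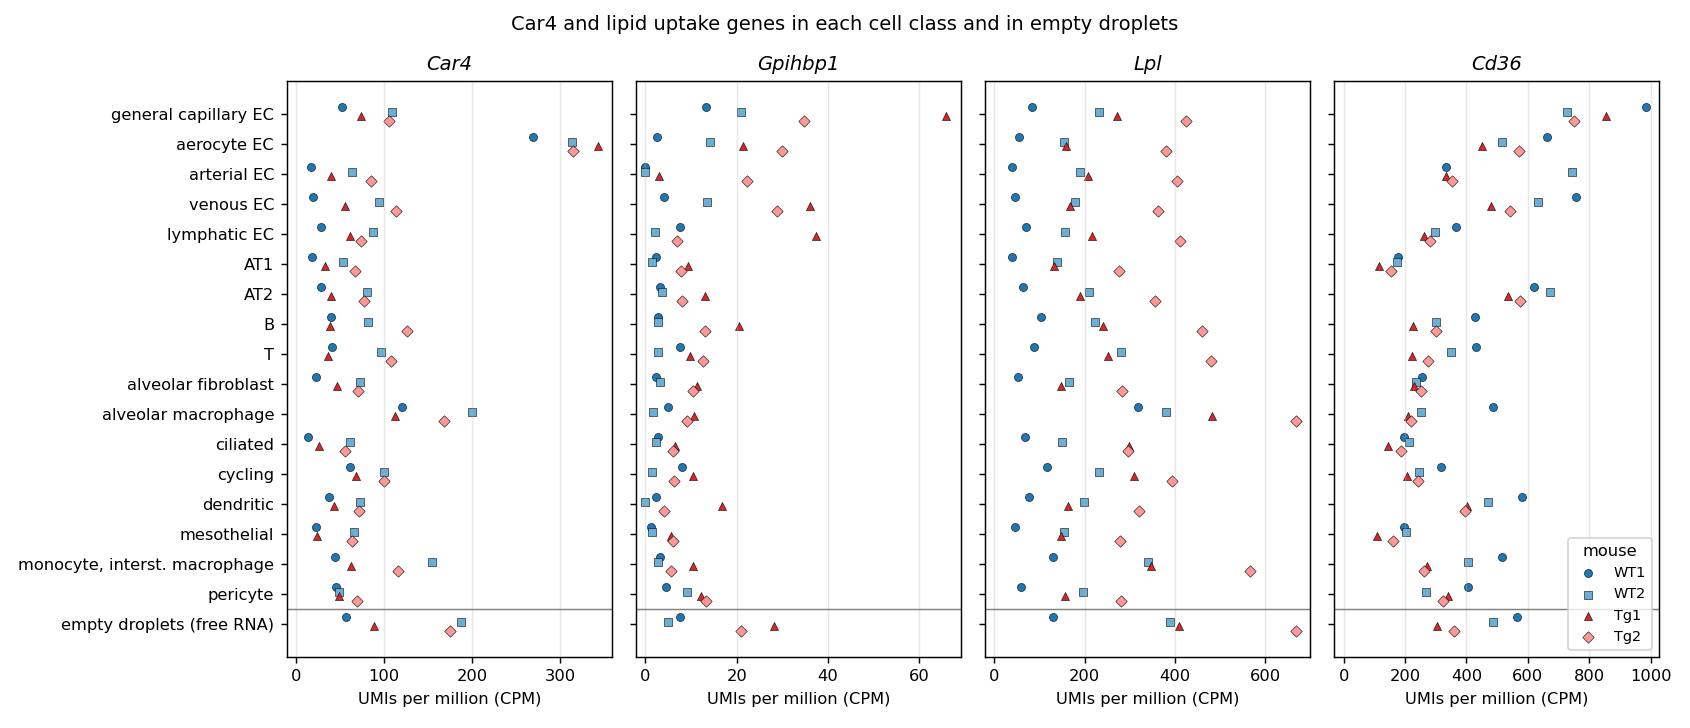
Level of Car4, Gpihbp1, Lpl and Cd36 in CPM (x axes, which differ between panels) in 17 cell classes and in empty droplets (rows), with 1 point per mouse. Car4 is highest in aerocytes at 270 to 343 CPM, while for Lpl WT1 is the lowest mouse in 17 of 17 classes and Tg2 the highest in 16, as in the empty droplets.

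Within each mouse the 2 capillary types were then set against each other, as the log2 of the aerocyte over the general capillary level. The nuclei were clustered on genes that go with these members, so the ratios describe the types and carry no test. Kitl was higher in aerocytes by 2.26 ± 0.26 (mean log2 ratio ± SD, n = 4 mice), or 4.79-fold, with 1.88 in Tg2 the lowest and 2.50 in Tg1 the highest. Car4 was higher by 1.92 ± 0.43, or 3.79-fold, from 1.53 in WT2 to 2.37 in WT1. In the other direction Kit had a ratio of -2.71 ± 0.25, a level 6.55-fold higher in general capillary ECs, from -2.91 to -2.34. These 3 ratios kept one sign in 4 of 4 mice.

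The lowly counted members were less sure. Apln had no ratio in WT1, where general capillary ECs had no UMI, and summed over the mice it gave 37 UMIs in aerocytes and 14 in general capillary ECs, 21.2 against 3.33 CPM, a 6.37-fold difference with a 95% interval of 3.36 to 12.8 that covers counting error only. Aplnr had a ratio of -1.35 ± 0.72 and Gpihbp1 one of -1.19 ± 0.99, with summed levels 2.44-fold (1.2 to 5.64) and 1.86-fold (1.27 to 2.8) higher in general capillary ECs. Cd36 at -0.60 ± 0.23 and Lpl at -0.54 ± 0.26 were lower in aerocytes in 4 of 4 mice, and neither class was above free RNA for Lpl. With the free RNA of each mouse subtracted, Car4 came to 425 and 406 CPM in the aerocytes of WT1 and WT2 and 492 and 405 in those of Tg1 and Tg2, against 46.2, 24.8, 62.5 and 48.6 CPM in general capillary ECs, and its ratio rose to 3.32. Kitl came to 2889, 2367, 2204 and 1952 CPM in aerocytes against 544, 397, 346 and 489 CPM in general capillary ECs. Kit came to 53.8, 50.8, 67.8 and 54.8 CPM in aerocytes against 627, 522, 399 and 493 CPM. Apln came to 22.4, 55.9, 29.7 and 23.5 CPM in aerocytes and to 0 in the general capillary ECs of 3 mice, with 9.62 CPM in Tg1. The direction of these 4 members was thus that of the levels as counted. Nuclei were also assigned one by one from their markers in place of clusters. The ratios of Kitl, Car4 and summed Apln then fell to 1.24, 0.55 and 0.99, and that of Kit became -3.70. The mean aerocyte level was then 812 CPM for Kitl, 125 CPM for Car4 and 6.36 CPM for Apln. The means in empty droplets were 139, 127 and 5.54 CPM.

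**Figure D3:**
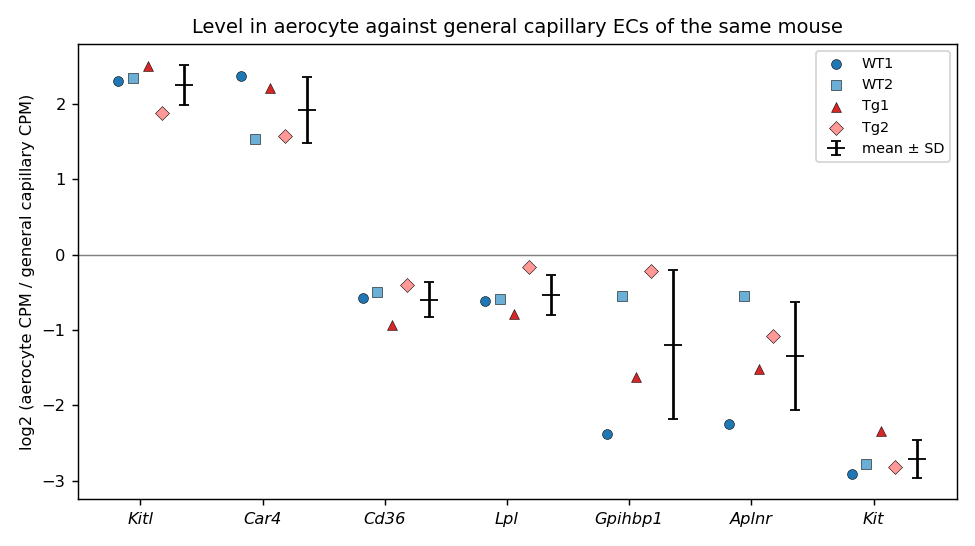
Log2 ratio of the level in aerocytes over that in general capillary ECs of the same mouse (y axis) for 7 genes, with 1 point per mouse and the mean ± SD over 4 mice in black; Apln is left out because 1 mouse had no UMI. Kitl and Car4 lie above 0 and the other 5 below, with the points of Gpihbp1 and Aplnr spread most widely.

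The genes with the most similar pattern were sought over 17 classes and 4 mice, 68 points in all, among 14276 genes with at least 50 UMIs in every mouse. The points of 1 mouse share a library and its free RNA, so Pearson's r of log2(CPM + 1) is a description. For Kitl these were Meis1 (r = 0.88), Phldb1 (0.87) and Tbx3 (0.86), and for Kit Zfp366 (0.85), BC028528 (0.80) and Itga1 (0.79). Cd36 was most like Lrrc8c (0.82), Tmeff1 (0.82) and Sh3pxd2a (0.77), Gpihbp1 like Crip2 (0.80), Ly6c1 (0.76) and Psma7 (0.75), and Car4 like Itpripl2 (0.77), Cybb (0.73) and Sirpa (0.72). Lpl went with Ccl6 (0.96), Mpeg1 (0.92) and Klhdc4 (0.92). Apln and Aplnr were below the 50 UMIs themselves and had the weakest likenesses, with Krt80 (0.66), Car4 (0.60) and Cops8 (0.59) for Apln and Pcdh12 (0.67), Smagp (0.64) and Egfl7 (0.64) for Aplnr. Car4, which also led in aerocytes, stands second for Apln.

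The comparison of genotypes asks how the levels of the 8 genes differ between VEcad-TRF2DN-Tg and WT lungs in hypoxia. UMIs were summed per mouse and class and tested with edgeR's quasi-likelihood test, with Benjamini-Hochberg adjustment over all genes tested and a threshold of 0.05, so that every comparison is of 2 mice against 2. In general capillary ECs 1 of 7 members tested passed, Gpihbp1, where 14.5% of all 10454 genes tested were called. Gpihbp1 was higher in Tg mice by a log2 fold change of 1.59 (SE 0.43, 95% interval 0.63 to 2.56, adjusted p = 0.0385). The levels were 13.4 and 20.9 CPM in WT and 65.9 and 34.8 CPM in Tg. Both Tg mice were above both WT mice for this gene in 15 of 17 classes, so that this order is not particular to capillary ECs. The empty droplets moved the same way and further, by 2.27 (SE 0.38, adjusted p = 0.0180), and whether the capillary change is that of the free RNA was not tested. With the free RNA subtracted the change was 1.25 with an adjusted p of 0.309, and without Tg1 it was 1.02 with an adjusted p of 0.291. The call was also lost with DESeq2 (0.0936), with only nuclei of at least 2500 UMIs (0.0724), with nuclei assigned one by one (0.110) and with the first clustering alone (0.0809).

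The members with strong capillary signals did not pass. Kit in general capillary ECs differed by -0.14 (95% interval -0.58 to 0.29, adjusted p = 0.653), an interval that holds changes in both directions. Kitl in general capillary ECs differed by -0.02 (-0.50 to 0.46) and Cd36 by -0.02 (-0.54 to 0.50). Car4, below free RNA there in all 4 mice, differed by 0.22 (-0.49 to 0.92). Aplnr was 1.06 higher (-0.11 to 2.24, adjusted p = 0.195), at 12.1 and 4.18 CPM in WT and 15.3 and 16.7 CPM in Tg. In empty droplets it was 1.25 higher (adjusted p = 0.0693). With 1 mouse left out the Aplnr change ran from 0.42 to 1.97, and it did not pass. Lpl was 1.20 higher (0.35 to 2.06, adjusted p = 0.0639) beside 1.27 in empty droplets (adjusted p = 0.114). With the free RNA subtracted the Lpl change was 2.03 and passed by edgeR (adjusted p = 0.0396), where 143 of 7272 genes were called. That subtraction took 51.0% and 51.2% of the class's UMIs in WT1 and WT2 but 40.8% and 45.2% in Tg1 and Tg2. As counted, Lpl lay at 0.633 of the free RNA of the same mouse on average and 0.596 at the least. The part of the uneven subtraction in the change was not tested. With 1 mouse left out the Lpl change ran from 0.65 to 2.09. Apln was under the filter on low counts.

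In aerocytes 0 of 5 members tested passed by edgeR, where 9.02% of 6838 genes were called, and DESeq2 called 0 of 6. An unadjusted p under 0.05 was found for 1 member, as for 1727 of all 6838 genes. Kitl differed by -0.09 (95% interval -0.63 to 0.45, adjusted p = 0.849), and Car4 by 0.30 (-0.19 to 0.79, adjusted p = 0.442). The Car4 values were 270 and 314 CPM in WT and 343 and 315 CPM in Tg, with WT2 and Tg2 all but equal. Kit differed by 0.16 (-0.69 to 1.01) and Cd36 by -0.09 (-0.59 to 0.41). Lpl was the member with the small unadjusted p, 1.52 higher in Tg (0.51 to 2.53, adjusted p = 0.0682), with 53.9 and 154 CPM in WT and 158 and 379 CPM in Tg, all below free RNA. With 1 mouse left out its change ran from 0.83 to 2.41, and it passed without WT2 (adjusted p = 8.45e-08) and without Tg1 (1.81e-05). Apln, Aplnr and Gpihbp1 were under the filter.

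All blood vascular ECs together (general capillary, aerocyte, arterial and venous) allowed all 8 members to be tested, and again 1 passed, where 10.5% of 12739 genes were called. Gpihbp1 was 1.62 higher (SE 0.40, 95% interval 0.67 to 2.57, adjusted p = 0.0486), at 7.45 and 17.4 CPM in WT and 42.6 and 31.6 CPM in Tg. The call was lost without WT1 (1.13, adjusted p = 0.0812), without Tg1 (1.35, 0.314) and without Tg2 (1.86, 0.114), with nuclei of at least 2500 UMIs (1.52, 0.0960) and with free RNA subtracted (1.28, 0.326). Apln differed by 0.32 (SE 0.56, adjusted p = 0.729) and Aplnr by 0.62 (SE 0.42, adjusted p = 0.350). Aplnr ran from 0.27 to 1.09 with 1 mouse left out and did not pass. Kit differed by -0.21 (-0.63 to 0.20), Kitl by -0.20 (-0.65 to 0.26), Cd36 by -0.20 (-0.63 to 0.24) and Car4 by 0.19 (-0.48 to 0.85). Lpl was 1.24 higher (0.05 to 2.43, adjusted p = 0.145), with 0 of 4 mice above free RNA. With 1 mouse left out its change ran from 0.62 to 2.28, and it passed without WT2 (adjusted p = 9.93e-06). The sum mixes 4 EC types whose shares differ between the mice, and a change in those shares cannot be told apart in it from a change in level.

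**Figure D4:**
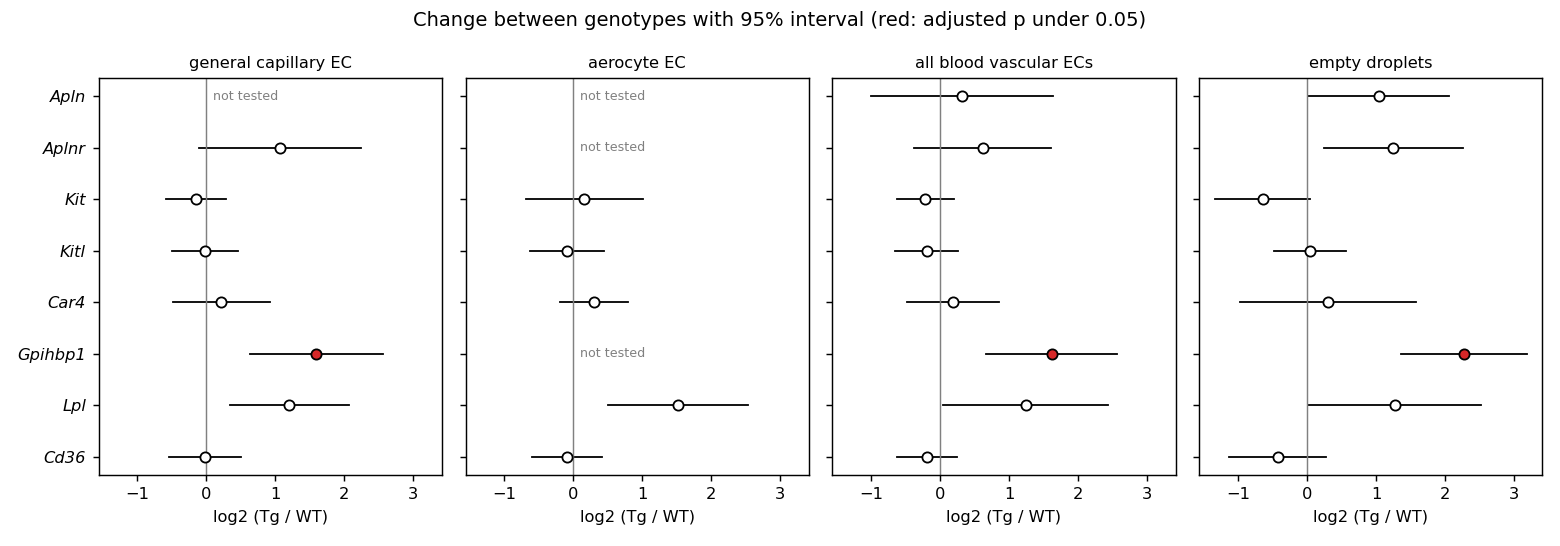
Log2 fold change of Tg over WT mice (x axes) for the 8 genes (rows) in general capillary ECs, aerocytes, all blood vascular ECs and empty droplets, with the 95% interval of edgeR's quasi-likelihood test as a line and red points for an adjusted p under 0.05. Only Gpihbp1 is red, at 1.59 in general capillary ECs, 1.62 in all blood vascular ECs and 2.27 in empty droplets, and genes under the filter on low counts are marked as not tested.

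Calls of the members were also made outside the blood vessels. Gpihbp1 passed in 4 further classes. It was 2.20 higher in AT1 epithelial cells (adjusted p = 0.0304, 10.3% of genes called), 1.71 higher in AT2 cells (adjusted p = 0.0428, 12.1%), 1.91 higher in alveolar fibroblasts (adjusted p = 0.0372, 7.99%) and 2.11 higher in mesothelial cells (adjusted p = 0.0457, 8.04%). Each of these calls was lost without Tg1, with adjusted p from 0.226 to 0.283, those in AT1 and mesothelial cells whichever mouse was left out, and that in fibroblasts also without Tg2 (0.105). DESeq2 called it in AT2 cells but not in AT1 cells (adjusted p = 0.0521), fibroblasts (0.167) or mesothelial cells (0.174). In the 4 classes with a call the level was below that of the empty droplets in 4 of 4 mice. AT1 cells held 2.42, 1.53, 9.36 and 7.79 CPM in WT1, WT2, Tg1 and Tg2, and AT2 cells 3.10, 3.58, 13.1 and 8.07. Fibroblasts held 2.34, 3.18, 11.4 and 10.5 CPM, and mesothelial cells 1.21, 1.45, 5.62 and 6.12.

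Lpl passed in lymphatic ECs, 1.53 higher in Tg (SE 0.36, adjusted p = 0.0210), where 7.81% of 7823 genes were called. The lymphatic level was 68.9 and 157 CPM in WT and 216 and 412 CPM in Tg, 0 of 4 mice above free RNA, and the call was lost without Tg1 (adjusted p = 0.286) and without Tg2 (0.0789). Cd36 passed in 0 classes by edgeR. Its unadjusted p was under 0.05 in T cells (as for 3529 of all 12331 genes tested) and in mesothelial cells (4180 of 14532). The same held in alveolar macrophages (5025 of 15180) and in monocytes and interstitial macrophages (3067 of 12371). In these classes Cd36 was lower in Tg and below free RNA in every mouse. In empty droplets it moved by -0.43 (adjusted p = 0.305 by edgeR). In the other 10 classes no member passed by edgeR, where 7.01% of the 104428 tests made in them were called, and by DESeq2 Lpl passed in ciliated cells (1.40, adjusted p = 0.00125). The absence of calls depended on the mice and on the settings. Without WT2 members passed by edgeR in these classes, mostly Lpl, and more of all genes were called in each class. With all 4 mice kept, a member passed in most of them with no filter on low counts or with the replicate number in the model. Without WT1 Gpihbp1 passed in B cells and alveolar macrophages and Lpl in ciliated cells, and without Tg1 Lpl passed in arterial ECs, venous ECs and dendritic cells. The empty droplets themselves had 25.6% of 15180 genes called, the largest share of these comparisons.

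**Figure D5:**
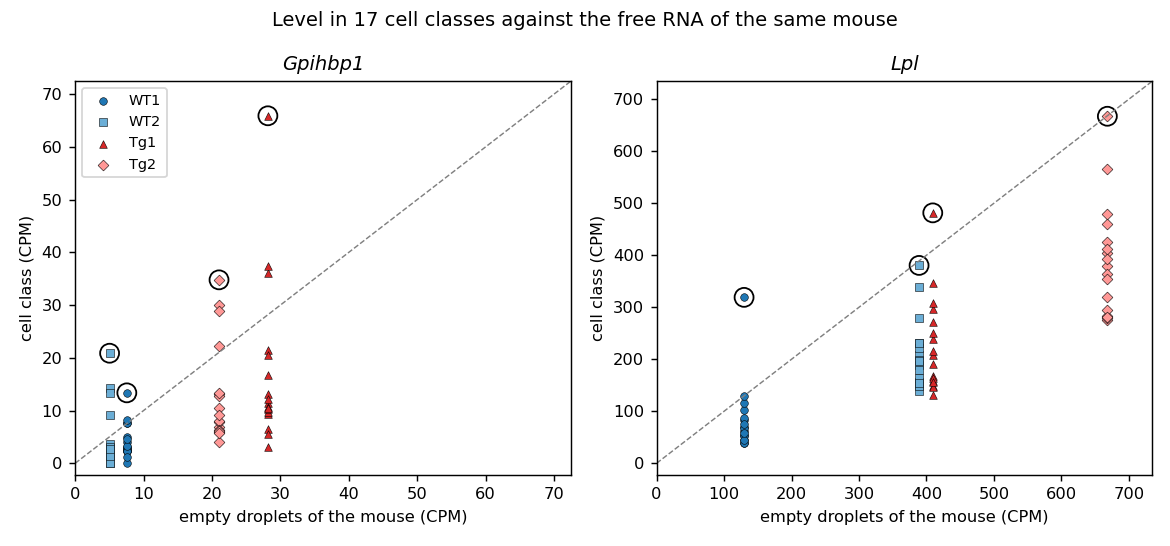
Level of Gpihbp1 and Lpl in each of 17 cell classes (y axes) against the level in the empty droplets of the same mouse (x axes), both in CPM, with 1 column of points per mouse and a dashed line of equality; circles mark general capillary ECs for Gpihbp1 and alveolar macrophages for Lpl. Most classes lie below the line and shift together from mouse to mouse, and the circled Gpihbp1 points, at 13.4 to 65.9 CPM, stay above it.

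Around the members, the genes of their pathways were read from lists of symbols. Of the apelin signalling list (receptor, G proteins, arrestins and downstream regulators) 12 of 14 genes were tested in general capillary ECs, 1 rose and 1 fell in Tg mice, beside 14.5% of all genes called there, and the median log2 fold change was 0.08 beside 0.02 over all genes. The G protein subunit gene Gnai2 rose by 1.07 (adjusted p = 0.00999) and the histone deacetylase gene Hdac4, a target of apelin signals in ECs, fell by 0.77 (adjusted p = 0.0336). Both moved the same way in empty droplets, Gnai2 by 1.67 (adjusted p = 0.0213) and Hdac4 by -0.89 (adjusted p = 0.0445). Gnai2 also rose in aerocytes, by 1.19 (1 of 9 genes tested, beside 9.02% of all genes), and in all blood vascular ECs, by 1.03 (1 of 13, beside 10.5%).

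Of the Kit signalling list 16 of 17 genes were tested in general capillary ECs, 0 rose and 1 fell, beside 14.5% of all genes called there, with a median of -0.21. The adaptor gene Grb2 fell by 0.65 (adjusted p = 0.0486), beside -0.71 in empty droplets (adjusted p = 0.0706). In aerocytes 0 of 14 passed by edgeR, beside 9.02% of all genes called, with a median of -0.16, and 3 had an unadjusted p under 0.05, as 1727 of all 6838 genes had. In all blood vascular ECs 0 of 17 passed by edgeR, beside 10.5%, with a median of -0.27, and 4 had an unadjusted p under 0.05, as 4057 of all 12739 genes had.

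Of the lipolysis and fatty acid uptake list 16 of 25 genes were tested in general capillary ECs, 4 rose and 0 fell, beside 14.5% of all genes called there, with a median of 0.10. They were the fatty acid binding protein gene Fabp5 (1.85, adjusted p = 0.00185), the lipoprotein receptor gene Lrp1 (1.39, adjusted p = 0.00973), Gpihbp1, and Angptl4, an inhibitor of lipoprotein lipase (2.06, adjusted p = 0.0394). The empty droplets showed Fabp5 1.94 higher (adjusted p = 0.0178), Lrp1 1.39 (adjusted p = 0.0356) and Angptl4 2.19 (adjusted p = 0.0437). Lrp1 (1.55) and Fabp5 (1.23) rose in aerocytes, 2 of 10 tested with a median of -0.07 beside 9.02% of all genes called, and Fabp5, Lrp1 and Gpihbp1 in all blood vascular ECs, 3 of 18 with a median of 0.08 beside 10.5%. The part of free RNA in these changes was not tested.

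Among the carbonic anhydrases 5 of 16 could be tested in general capillary ECs, and 1 passed, beside 14.5% of all genes. Car14, a membrane-bound member, rose by 1.24 (adjusted p = 0.0493), beside 1.08 in empty droplets (adjusted p = 0.125), and 0 fell. In aerocytes 2 were tested, Car4 and Car8, and 1 passed, beside 9.02% of all genes. Car8, a relative without carbonic anhydrase activity that is also a venous marker, fell by 1.28 (adjusted p = 0.0382), beside -1.17 in empty droplets (adjusted p = 0.0742). In all blood vascular ECs 0 of 6 passed by edgeR, beside 10.5% of all genes. An unadjusted p under 0.05 was found for 1, as for 4057 of all 12739 genes.

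Whether the change between genotypes differed between aerocytes and general capillary ECs was tested as an interaction with a term for each mouse. Of the members 0 of 8 passed by edgeR, where 0.0389% of 10284 genes were called. Over all genes tested 509 of 10284 had an unadjusted p under 0.05, and of the members 1 did. That was Apln, whose change in aerocytes minus that in general capillary ECs was -2.42 on the log2 scale (95% interval -4.77 to -0.08, unadjusted p = 0.0434 and adjusted p = 0.966 by edgeR). With 1 mouse left out it ran from -4.69 to -1.78. It rests on 6 and 12 against 8 and 11 UMIs in aerocytes and 0 and 2 against 8 and 4 in general capillary ECs. Kit had a difference of 0.18 (-0.54 to 0.89). The intervals were narrower for Kitl (-0.53 to 0.13), Cd36 (-0.47 to 0.18), Car4 (-0.58 to 0.43) and Lpl (-0.31 to 0.69) than for Gpihbp1 (-1.25 to 1.64) and Aplnr (-2.12 to 2.71).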

How the data were processed

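Nuclei of 4 mouse lungs, 1 library each, were profiled by droplet single-nucleus RNA-Seq. The deposited UMI counts were made by the authors with Cell Ranger 6.1.1 on mm10, per the submitters' processing notes, with intronic reads counted per the study's methods. The matrices hold barcodes down to empty droplets, and the authors' cell annotation was not used here. Each library held 125261739 to 182014706 UMIs over all barcodes.

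Barcodes with at least 1500 UMIs, 200 genes and at most 5% mitochondrial UMIs were kept for clustering, some of which proved like free RNA. Those with 300 to 800 UMIs were taken as empty droplets. Pearson residuals of 2500 variable genes, without the 8 genes and the genes of their lists, gave 40 principal components, 20 nearest neighbours and Leiden clusters at resolution 1.5. A cluster was named from a marker list with at least 3 markers 2-fold above the median cluster. It stayed unnamed where it resembled the sum of 2 other clusters or free RNA, or where a second list came close. Nuclei of endothelial clusters were clustered again at resolution 1.0 for the subtypes. These naming rules were set after the clusters were seen. No doublet caller was part of the main analysis, and an alternative dropped the highest-scoring nuclei at 0.8% per 1000 nuclei.

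UMIs were summed per mouse and class and tested with edgeR 4.0.16 (quasi-likelihood, TMM, filterByExpr with a minimum count of 10, R 4.3.3) with Benjamini-Hochberg adjustment over all genes tested and a threshold of 0.05. DESeq2 1.42.0 was an alternative. The scripts were tested on simulated counts. Each p and interval rests on the spread between 2 mice per genotype, moderated by a dispersion shared over the genes tested. CPM used all UMIs of a class as the denominator. Free RNA was subtracted as the profile of the empty droplets, scaled to 7 secretory genes. Shares of nuclei with a UMI were taken after thinning each nucleus to 1500 UMIs. Exact Poisson and Clopper-Pearson intervals at 95%, and the limit of 3 counts behind a 0, cover counting error only.

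The text names the 8 genes in every class, the genes of each list that passed (at most 5, smallest adjusted p first), and the 3 genes most like each member. The members and lists were chosen with earlier results of these data known. Python 3.11.15, numpy 2.4.6, scipy 1.17.1 and leidenalg 0.10.2 were used. Promoter windows were from RefSeq (GRCm38.p6) and gene positions from GENCODE vM21.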

Additional observations from a re-analysis of the deposited data

Results flagged for a closer look

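The genotype change differed between aerocytes and general capillary ECs for 4 of 10284 genes by edgeR's quasi-likelihood test of the interaction, and none of the 8 capillary genes was among them. Values are the log2 change in aerocytes minus that in general capillary ECs. Gucy1a1, a subunit of the nitric oxide receptor guanylate cyclase and one of the 9 pericyte markers, had -3.22 (adjusted p = 0.0182), with 1.43 in general capillary ECs and -1.69 in aerocytes. The 9 pericyte markers, Gucy1a1 included, summed to 89.9 and 202 CPM in the aerocytes of WT1 and WT2 against 58.9 and 33.2 CPM in those of Tg1 and Tg2, and to 75.3, 58.4, 91.7 and 104 CPM in general capillary ECs, beside 94.6, 69.4, 109 and 99.5 CPM in empty droplets, with 0 of the 9 at 0. Since Gucy1a1 is part of the sum, the 2 are not independent, and the part of pericyte RNA in the result was not tested. Igfbp7, a secreted binding protein, had -0.96 (adjusted p = 0.0496), with 1.30 in general capillary ECs and 0.42 in aerocytes. Slc22a23, a transporter gene, had 0.97 (adjusted p = 0.0496), with -1.01 and 0.08. Cd226, an adhesion receptor gene, had 2.76 (adjusted p = 0.0496), with -1.61 and 1.24. The summed T cell markers were, in WT1, WT2, Tg1 and Tg2, at 285, 411, 110 and 488 CPM in aerocytes and at 209, 222, 36.3 and 152 CPM in general capillary ECs, beside 285, 331, 62.9 and 229 CPM in empty droplets, with 0 of 7 at 0, and their part in this result was not tested. Without 1 mouse 0 to 10 genes were called (0 without Tg2, 1 without WT2, 5 without Tg1 and 10 without WT1), and 0 with free RNA subtracted.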

How the results depend on the processing

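In general capillary ECs 1514 genes were called between genotypes, 690 by DESeq2, 2346 with no filter on low counts, 577 with nuclei of at least 2500 UMIs, 143 with free RNA subtracted, 625 with nuclei assigned one by one, and 167 (without Tg1) to 1653 with 1 mouse left out, with 444 without Tg2. In aerocytes the 617 became 283, 1061, 342, 42 and 221 in that order, and 440 to 947 (without WT2). In all blood vascular ECs the 1333 became 3007 with no filter, 726 with deeper nuclei, 126 with free RNA subtracted, and 2 (without Tg1) to 2613 (without WT2), with 261 without Tg2. In empty droplets the 3883 of 15180 tested became 463 of 2226 tested with 300 to 500 UMIs, and 0 (without Tg1) to 4802, with 814 without Tg2. Summed over the other classes the 13500 became 30632 with no filter and 2063 (without Tg1) to 24587 (without WT2), with 7990 without Tg2. The interaction's 4 calls became 0 with free RNA subtracted, 22 with the first clustering only, and 0 to 10 with 1 mouse left out. The cause was not tested. The first clustering and the interaction with free RNA subtracted were chosen once these data were known. Where 1 mouse is left out, the lone mouse of its genotype is assumed to vary like the other group.

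Replicate numbers are shared by the genotypes. Deviations of same-numbered mice correlated at 0.0644 in general capillary ECs, 0.0543 in aerocytes and 0.152 in all blood vascular ECs. With 2 pairs these values cannot show whether same-numbered mice share a batch. In empty droplets Apln, Car4 and Lpl were higher in replicate 2 of both genotypes, and Gpihbp1 was lower. Aplnr, Kit, Kitl and Cd36 moved in opposite directions in the 2 genotypes. With the replicate block 2156, 948 and 2601 genes were called in general capillary ECs, aerocytes and all blood vascular ECs, and 21165 in the other classes. Lpl then passed in general capillary ECs (adjusted p = 0.000202), in aerocytes and in all blood vascular ECs, and Lpl or Gpihbp1 in 8 of the 10 classes with no member called.

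With nuclei assigned one by one the log2 ratio of aerocytes over general capillary ECs became -3.70 for Kit and 1.24 for Kitl. It also became 0.55 for Car4, -0.30 for Lpl and 0.99 for summed Apln. With free RNA subtracted it became -3.16 for Kit, 3.32 for Car4, -0.91 for Cd36, 3.55 for summed Apln and -1.03 for summed Lpl. With the first clustering it became 1.93 for Kitl and -1.96 for Gpihbp1. With 1 mouse left out it ran from -1.61 to -1.05 for Aplnr, -2.84 to -2.65 for Kit, 2.18 to 2.39 for Kitl, 1.77 to 2.05 for Car4, -1.52 to -0.79 for Gpihbp1, -0.66 to -0.46 for Lpl, -0.67 to -0.49 for Cd36 and 2.28 to 3.48 for Apln.

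Changes between genotypes that turned sign were not called in the main analysis. With deeper nuclei, Cd36 became 0.035 and Kitl 0.29 in general capillary ECs, and Cd36 0.090 in aerocytes. Kitl in general capillary ECs became 0.027 with the first clustering. With free RNA subtracted, Cd36 in aerocytes became 0.049, Apln in all blood vascular ECs -0.24 and the Cd36 interaction 0.077. The Car4 interaction became 0.062 with no filter. With 1 mouse left out, ranges across 0 were -0.26 to 0.22 for Cd36, -0.22 to 0.16 for Kitl and -0.21 to 0.81 for Car4 in general capillary ECs. In aerocytes they were -0.29 to 0.11 for Cd36, -0.031 to 0.41 for Kit and -0.28 to 0.085 for Kitl, and in all blood vascular ECs -0.15 to 0.60 for Car4 and -0.27 to 1.20 for Apln. For the interaction they were -0.62 to 0.91 for Aplnr (3 fits), -0.44 to 0.19 for Cd36, -0.22 to 0.49 for Lpl, -0.38 to 0.14 for Kitl, -0.60 to 0.36 for Car4 and -0.61 to 1.45 for Gpihbp1.

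Lpl in general capillary ECs also passed by edgeR with no filter (adjusted p = 1.3e-05, beside 2346 of 19906 genes called). With free RNA subtracted it passed there too (2.03 higher, 0.0396, beside 143 of 7272). In aerocytes it passed with no filter (4.22e-05, beside 1061 of 17991), with deeper nuclei (0.0427, 342 of 5843) and one by one (0.0327, 221 of 6039). Without WT2 it also passed in both classes, and without Tg1 in aerocytes. In all blood vascular ECs Lpl passed with no filter (5.44e-07, beside 3007 of 21436) and without WT2. Gpihbp1, under the filter in aerocytes, passed there with the first clustering only (2.92, 0.0251, beside 518 of 9515). With no filter a member passed in 9 of the 10 classes with no member called. Of the remaining settings 262 kept direction and side of the threshold. The depth limits Apln, Aplnr and Gpihbp1 most, with at most 69 UMIs in a capillary class of a mouse.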
